A study of Sus scrofa with 15 samples.

Results

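RGS5, PDGFRB, THY1 and CDH11, 4 genes used as markers of pericytes and mesenchymal stromal cells, were followed through the culture of pig granulosa cells. The genes were fixed by name, and their probe sets were those to which the array annotation gave one of these symbols alone. They were 4 of 6765 genes with 1 symbol and had 9 of the 23999 probe sets tested. RGS5 had 1 probe set, PDGFRB 2, and THY1 and CDH11 had 3 each; the probe set with the highest mean over the 15 arrays stood for its gene. Porcine granulosa cells from ovarian follicles were measured without culture (day 0), after 1, 2 and 4 days of culture while they dedifferentiated, and on day 7, when the labels call them DFOG cells, grown to semiconfluence. Each of these 5 days had 3 Affymetrix porcine genome arrays of total RNA. The labels name no strain, genotype, age or added agent, and nothing says whether the 3 biological replicates came from separate animals, pools or cultures, so p-values measure only the spread between these arrays. Values are log2 intensities, and their number limits the precision. A change counts as called where limma, a linear model fitted to all probe sets, gave it a Benjamini-Hochberg adjusted p under 0.05 and it was at least 1 in size on the log2 scale; errors of changes are standard errors (SE) of that fit.

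Pericytes are the mural cells that wrap capillaries, and mesenchymal stromal cells are the fibroblast-like cells that grow out of many tissues on plastic. RGS5 is a regulator of G protein signaling: it speeds the hydrolysis of GTP by Gi and Gq alpha subunits and so shortens signals from their receptors. PDGFRB is the receptor tyrosine kinase for platelet-derived growth factor B, through which endothelium recruits mural cells. THY1 (CD90) is a small membrane protein held by a lipid anchor that binds integrins, and CDH11 is a cadherin of mesenchymal cells that joins like cells to each other. In the follicle, pericytes lie in the theca, outside the basement membrane that surrounds the granulosa layer.

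Of 19 granulosa genes, INHA, the inhibin alpha subunit, and HSD17B1, an estradiol enzyme, were brightest on day 0, with means of 14.26 and 13.52. Others were low there: FOXL2, the granulosa transcription factor, had a mean of 5.90 and CYP19A1, aromatase, of 5.26, while ESR2 (4.36) and KITLG (4.39) lay below the lower quartile of those arrays. By day 7, 9 of the 19 fell and 0 rose, beside 7.28% and 9.36% of all probe sets (1 was higher at an unadjusted p under 0.05). Of 9 further pericyte markers with a probe set, 0 rose on day 1 or day 2 in limma, beside 6.47% and 7.68% of all probe sets. On those days 0 were higher at an unadjusted p under 0.05. On day 7, 2 rose and 3 fell, beside 9.36% and 7.28%. The counts of risen markers are too small and too near those shares to say whether the name pericyte applies. The array of replicate 1 stood apart on every day, with correlations of 0.963 to 0.982 with the other arrays of their day against 0.988 to 0.996 between replicates 2 and 3. Actin probe sets at the 3′ end exceeded those at the 5′ end, a sign of RNA breakdown, by 0.97 to 1.68 in the 3 fresh arrays against 0.18 to 1.01 a day later. The difference was 0.02 to 0.68 for day 2 and 0.19 to 0.59 for day 7. For day 4 it was 0.07 to 2.12, with replicate 2 the highest of all arrays. Replicate 1 had the lowest difference on every day, and the part of this difference in the changes was not tested. In bulk RNA a change in the share of cells that express a gene cannot be told apart from a change in the RNA per cell.

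RGS5 was the early gene of the 4. Its values were 4.68, 7.57 and 8.06 on day 0 in replicates 1, 2 and 3, then 13.00, 12.93 and 12.94 on day 1, and 13.38, 13.79 and 13.77 on day 2. They were 11.14, 12.44 and 12.44 on day 4 and 9.26, 10.81 and 11.23 on day 7. Every array of days 1 and 2 lay above every array of day 0, and day 7 lay below day 2 without overlap, but still above all of day 0. Of all probe sets, 20.7% lay higher on day 1 than on day 0 without overlap, 23.0% did so on day 7, and 13.3% lay lower on day 7 than on day 2.

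The early peak of RGS5 was known when the gene was selected, so its changes are a description and no test is given. The later rise of the surface markers was known as well. Their changes from day 0, and from any earlier day up to days 4 and 7, are given with an SE and no test. Counts of those past the limits stand beside the share of all probe sets, and nothing is read from them. Only their step from day 1 to day 2 has p-values. These are no independent support, because the genes were chosen with earlier results of these data known. In fresh cells the mean of RGS5 was 6.77 ± 1.83 (SD, n = 3). After a day of culture it was 12.96 ± 0.04, and it was highest on day 2, at 13.65 ± 0.23. The difference from day 0 was 6.88 ± 0.71 (SE) on day 2, or 118-fold. It was 5.24 on day 4 and 3.66 on day 7, so that the day 7 mean, on the linear scale, was 10.8% of that of day 2. From day 2 to day 7 the level was lower by 9.30-fold.

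The spread of RGS5 came from the replicate 1 arrays. Replicate 1 was lower than the mean of the other replicates on days 0, 2, 4 and 7, by a log2 difference of -3.14, -0.40, -1.30 and -1.76, and differed from it by 0.07 on day 1. Without day 0 replicate 1 the difference from day 0 was 5.14 on day 1, 5.83 on day 2, 4.19 on day 4 and 2.62 on day 7. With replicates 2 and 3 alone, the change from day 2 to day 7 was -2.76. Day 2 was the highest and day 0 the lowest in each replicate.

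PDGFRB rose with RGS5 but stayed high. Its values in replicates 1, 2 and 3 were 6.33, 4.56 and 6.03 on day 0, and 9.41, 8.73 and 9.53 on day 1. On day 2 they were 10.88, 10.72 and 10.83. On days 4 and 7 they were 10.40, 10.94 and 10.64, and 9.997, 10.27 and 10.51. No culture array overlapped with day 0, and days 4 and 2 overlapped with each other. Day 7 lay below day 2 without overlap, as for 13.3% of all probe sets.

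Among PDGFRB, THY1 and CDH11, 2 rose on day 1, PDGFRB and CDH11, where 6.47% of all probe sets rose. PDGFRB rose by 3.58 ± 0.36 (12.0-fold). By day 2 its change from day 0 was 5.17 ± 0.36 (36.0-fold). With CDH11, 2 of the 3 had risen by then, beside 7.68% of all probe sets. All changes from day 0 share the same 3 arrays of that day.

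Between days 1 and 2 PDGFRB was the only one of the 3 called, by 1.59 ± 0.36 (limma adjusted p = 0.0195; 2.04% of all probe sets rose), though all 3 were higher at an unadjusted p under 0.05. That call was lost without day 1 replicate 2 (1.34, adjusted p = 0.0936), day 2 replicate 2 (1.63, 0.0637) or day 2 replicate 3 (1.58, 0.0713). From its highest mean on day 2, PDGFRB differed by -0.15 ± 0.36 on day 4 and by -0.55 ± 0.36 on day 7. Day 7 differed from day 1 by 1.04 ± 0.36; THY1 and CDH11, 2 of the 3, were past the limits over that span, as were 5.73% of all probe sets. At 10.26 ± 0.26 (SD, n = 3), the mean of day 7 was 68.3% of the highest mean on the linear scale. PDGFRB was thus an early gene as well, with 69.3% of its largest log2 change reached on day 1.

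THY1 was the late gene. Its values were 5.88, 5.66 and 6.13 on day 0 in replicates 1, 2 and 3, then 5.13, 5.48 and 5.34 on day 1, and 5.93, 5.87 and 6.26 on day 2. They reached 8.27, 8.97 and 9.03 on day 4 and 9.79, 9.65 and 10.47 on day 7. The values of days 0 and 2 overlapped, day 1 lay just below both, and days 4 and 7 lay above all earlier arrays.

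The difference of THY1 from day 0 was -0.57 ± 0.24 on day 1 and 0.13 ± 0.24 on day 2, neither past the limits. Day 4 was higher than day 2 by 2.74 ± 0.24 (6.68-fold). THY1 and CDH11, 2 of the 3, were past the limits in that interval, as were 2.00% of all probe sets. The difference from day 0 was 4.08 ± 0.24 (16.9-fold) on day 7.

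The mean of CDH11 was higher on each later day. Its values in replicates 1, 2 and 3 were 3.50, 2.87 and 3.10 on day 0. They were 4.94, 5.08 and 4.27 on day 1, and 4.96, 5.92 and 5.65 on day 2. On day 4 they were 7.75, 8.10 and 8.16, and on day 7 they were 8.77, 9.77 and 9.11. Days 1 and 2 overlapped, and no other pair of days did.

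CDH11 was higher than on day 0 by 1.61 ± 0.30 on day 1 (3.04-fold) and by 2.35 ± 0.30 on day 2. The step from day 1 to day 2, 0.74 ± 0.30, was not past the test (limma adjusted p = 0.207); with replicates 2 and 3 alone it was 1.11 (adjusted p = 0.0201). Day 4 was higher than day 2 by 2.50 ± 0.30. Its mean on day 0, 3.16 ± 0.32 (SD, n = 3), lay below the lower quartile of those arrays (4.59 to 4.68), near the floor of the signal, which limits how well the size of its changes from day 0 is known.

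All 3 of PDGFRB, THY1 and CDH11 were past the limits on day 4, where 9.29% of all probe sets were higher than on day 0, and on day 7, where 9.36% were; they were selected with this rise known. Day 7 was higher than day 2 by 3.95 ± 0.24 for THY1 and by 3.71 ± 0.30 for CDH11, the 2 of the 3 past the limits, beside 3.05% of all probe sets. Over the last interval, days 4 to 7, 0 of the 3 were past the limits, beside 0.0583% of all probe sets in either direction. THY1 changed there by 1.21 ± 0.24 and CDH11 by 1.21 ± 0.30. For each, all arrays of day 7 lay above those of day 4, as for 4.76% of all probe sets. This step is part of the rise known at selection, so no p-value of it is given.

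**Figure D1:**
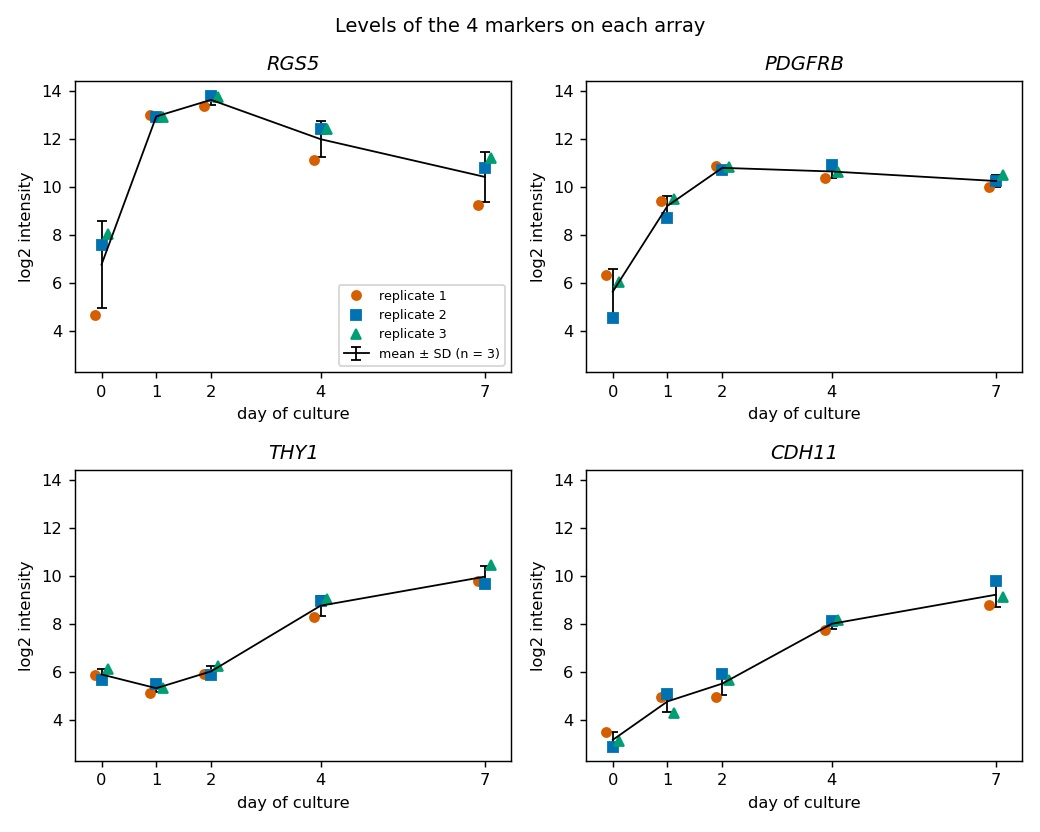
Log2 intensity (y axis) of RGS5, PDGFRB, THY1 and CDH11 on days 0, 1, 2, 4 and 7 of culture (x axis); symbols are the arrays of replicates 1, 2 and 3, and lines with bars are the mean ± SD of the 3 arrays. RGS5 is highest on day 2 at 13.65 and at 10.43 on day 7, and PDGFRB is highest on day 2 at 10.81 and at 10.26 on day 7. THY1 leaves its starting level between days 2 and 4, and CDH11 has a higher mean on each later day.

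Set side by side, the genes reached their day 7 change at different times. On day 1, RGS5 stood at 168.9% of its day 7 change from day 0 on the log2 scale, PDGFRB at 77.5%, CDH11 at 26.5% and THY1 at -14.1%. On day 4 the figures were 143.0%, 108.6%, 80.0% and 70.3%. The day 0 level of CDH11 lay near the floor, which limits its percentages. RGS5 and PDGFRB had their highest mean on day 2, THY1 and CDH11 on day 7.

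Within each array the difference between a surface marker and RGS5 removes what the genes of that array share. THY1 minus RGS5 moved by 7.17 from day 2, when it was -7.93 to -7.46, to day 7, when it was -1.16 to 0.53. CDH11 minus RGS5 moved by 6.93 and PDGFRB minus RGS5 by 2.67, both without overlap between these days. These contrasts were part of how the genes were selected and were not tested. Over the 15 arrays Pearson's r was 0.91 for THY1 with CDH11 and 0.78 for RGS5 with PDGFRB. It was -0.04 for RGS5 with THY1 and 0.29 for RGS5 with CDH11. All pairs share the same arrays and the same days, so these values only describe the time courses.

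The probe sets of PDGFRB did not give one answer. The other one stayed at means of 7.17 to 7.41 on all days and differed from day 0 by -0.06 ± 0.15 on day 7, with r = -0.34 with the one used. Of THY1's others, the brighter followed the one used (r = 0.98) with a difference from day 0 of 1.72 ± 0.17 on day 7. The third was at 0.75 ± 0.26 there, under the minimum change. The other CDH11 probe sets had means of 3.47 and 2.79 on day 0 and 4.93 and 3.28 on day 7; the brighter differed by 1.46 ± 0.35 and the dimmer by 0.49 ± 0.16. Both lay below the lower quartile on day 0, and the dimmer did on all days, so they say little about the one used. When a gene's probe sets were averaged, CDH11 was no longer called on day 1 (0.59) or day 2 (0.86), nor PDGFRB between days 1 and 2 (0.73). Which part of the transcript each probe set reads was not tested.

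**Figure D2:**
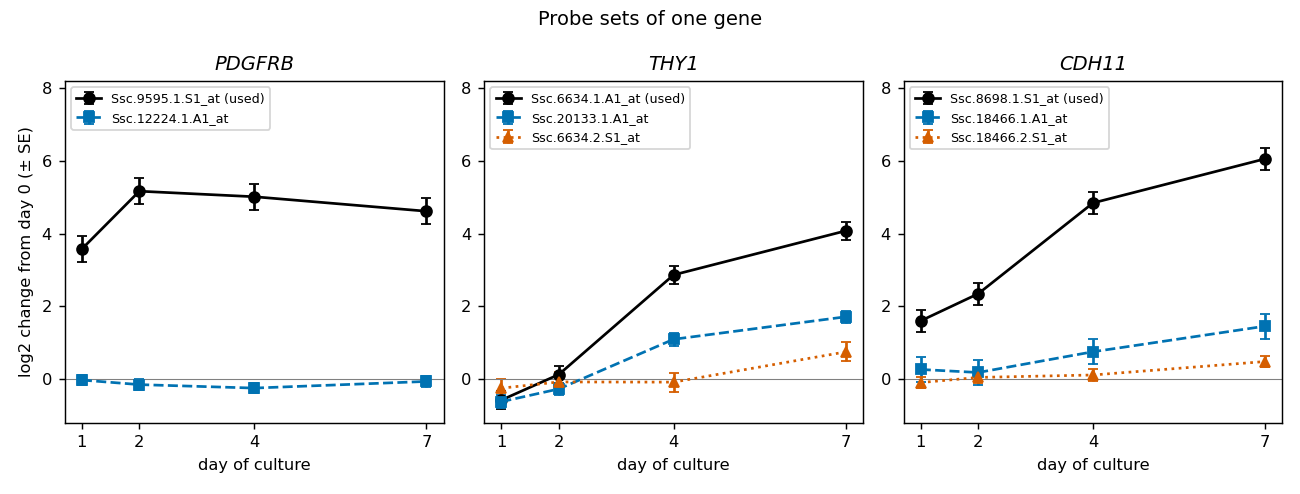
Log2 change from day 0 with its SE (y axis) on days 1, 2, 4 and 7 of culture (x axis) for each probe set of PDGFRB, THY1 and CDH11; black points are the probe set used. On day 7 the PDGFRB probe sets differ by 4.62 and -0.06 from day 0, those of THY1 by 4.08, 1.72 and 0.75, and those of CDH11 by 6.06, 1.46 and 0.49.

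No other pericyte marker was called higher on day 1. Of 24 listed, 9 had a named probe set, with a median change of -0.04 on day 1 beside -0.0012 for all probe sets. On day 1, 0 rose and 2 fell, beside 6.47% and 6.03% of all probe sets. At an unadjusted p under 0.05 the counts were 0 and 3. The endothelin receptor EDNRA, which contracts mural cells, changed by -2.60 ± 0.32, and ANGPT1, the ligand by which pericytes steady endothelium, by -1.81 ± 0.40 (limma adjusted p = 4.44e-05 and 0.00416). KCNJ8, a potassium channel subunit of pericytes, differed by -0.08 ± 0.12 on day 7 and HIGD1B, a mitochondrial protein used as a pericyte marker, by -0.10 ± 0.19, neither past the test. RGS4, a relative of RGS5 described with its family, is also on the list: all its day 1 arrays lay above those of day 0 with no call, and it fell from day 1 to day 7.

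On day 7, 2 of the 9 pericyte markers were higher and 3 lower, beside 9.36% and 7.28% of all probe sets. Their median was -0.10, and that of all probe sets -0.05. DES, the muscle intermediate filament desmin, rose by 2.22 ± 0.45 and ANPEP, an aminopeptidase (CD13) also found on stromal cells, by 1.62 ± 0.45 (limma adjusted p = 0.00171 and 0.0137). ANGPT1 was lower by a log2 change of -2.89 ± 0.40 and EDNRA of -2.18 ± 0.32. Without day 0 replicate 2, or without day 7 replicate 1, 3 of the 9 were called in place of 5. RGS4 and EDNRA, members of this list, are also counted among the RGS genes and the receptors.

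Several other surface markers of mesenchymal stromal cells rose. Of 12 measured out of 21 listed, 2 rose and 2 fell on day 1 (6.47% and 6.03% of all probe sets), and 5 rose and 1 fell on day 7 (9.36% and 7.28%), with a median of 0.84 on day 7 beside -0.05 for all probe sets. NCAM1, a neural cell adhesion molecule, rose by 2.55 ± 0.27 on day 1 and 3.38 ± 0.27 on day 7 (limma adjusted p = 1.29e-05 and 4.06e-07). VCAM1, which binds integrins of leukocytes, rose by 1.90 ± 0.57 on day 1 from a mean of 4.18 near the floor on day 0. The tetraspanin CD151 rose by 1.61 ± 0.17 on day 7, and CD200, an immune-modulating membrane protein, was lower by a log2 change of -2.58 ± 0.46. ENG (CD105), the TGF-beta co-receptor that defines these cells together with THY1, differed by -0.36 ± 0.14 and ALCAM by 0.21 ± 0.34 on day 7 (limma adjusted p = 0.0731 and 0.691), neither past the test. On day 1 the number called was 1 without day 0 replicate 2 and 2 without day 1 replicate 3, in place of 4.

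**Figure D3:**
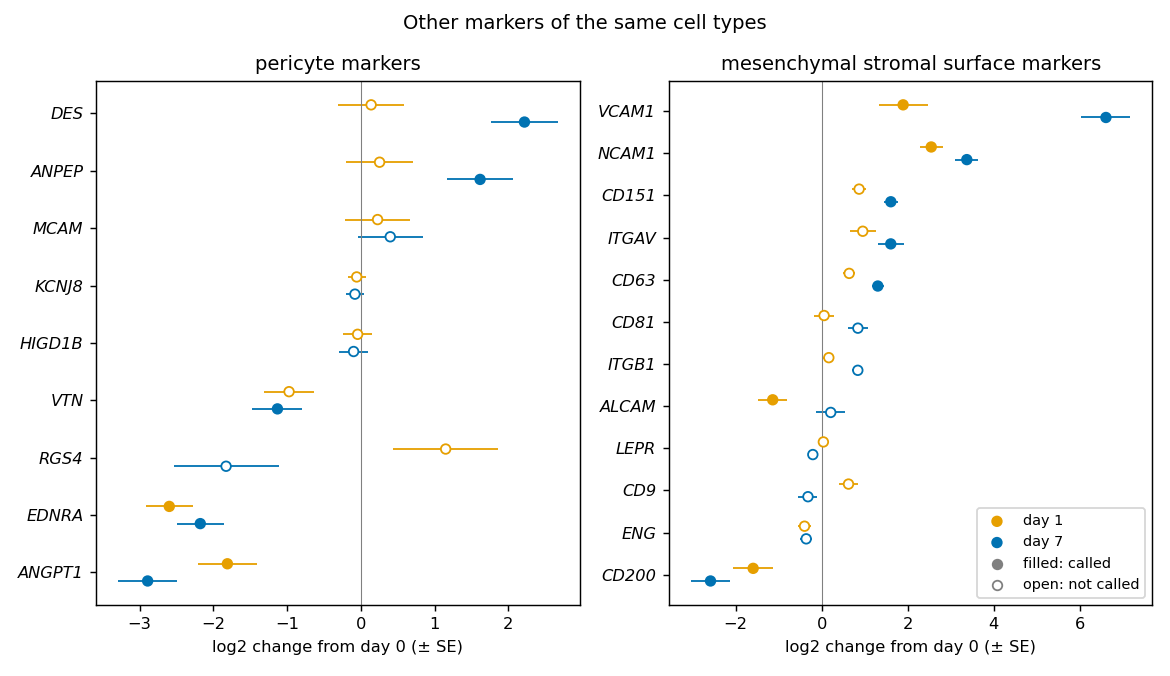
Log2 change from day 0 with its SE (x axis) for 9 further pericyte markers (left) and 12 stromal surface markers (right), on day 1 and day 7; filled points are called, open points are not. No pericyte marker is called higher on day 1, while 5 stromal markers are called higher on day 7, up to VCAM1 at 6.61.

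Of 20 other RGS genes listed, 7 were measured. On day 1, 0 of them rose and 0 fell, beside 6.47% and 6.03% of all probe sets, with 1 lower and 0 higher at an unadjusted p under 0.05. The number called was 1 without day 0 replicate 1 or without day 1 replicate 1. Counts so near those shares give no comparison of RGS5 with its family. The median change of the 7 on day 1 was 0.05, beside 6.19 for RGS5, whose early peak was known at selection. RGS4, a close relative of RGS5 and its neighbour in the Sscrofa11.1 gene order, was at 9.34, 10.85 and 10.94 on day 0 in replicates 1, 2 and 3, and at 11.34, 11.59 and 11.66 on day 1. On day 7 it was at 6.90, 9.25 and 9.50. All arrays of day 1 lay above those of day 0, and replicate 1 was the lowest array on each day, as for RGS5 on every day but the first of culture.

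RGS4 differed from day 0 by 1.15 ± 0.71 on day 1 (limma adjusted p = 0.295) and by -1.83 ± 0.71 on day 7 (adjusted p = 0.0678, and 0.00268 with the replicate number as a block). It fell from day 1 to day 7 by 2.98 ± 0.71 on the log2 scale (limma adjusted p = 0.00932), as 3.31% of all probe sets did. Its mean was thus highest on day 1, at 11.53, and lower on each day after, whereas RGS5 was highest on day 2. RGS2, which acts mainly on Gq, was lower on day 7 by a log2 change of -2.62 ± 0.51 (limma adjusted p = 0.00126). It was the only one of the 7 called there, on a day when 9.36% of all probe sets rose and 7.28% fell. That count was 3 without day 0 replicate 1, and 2 without day 4 replicate 1, without day 7 replicate 3 or with the block. RGS10 differed by 0.91 ± 0.17 on day 7, under the minimum change.

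**Figure D4:**
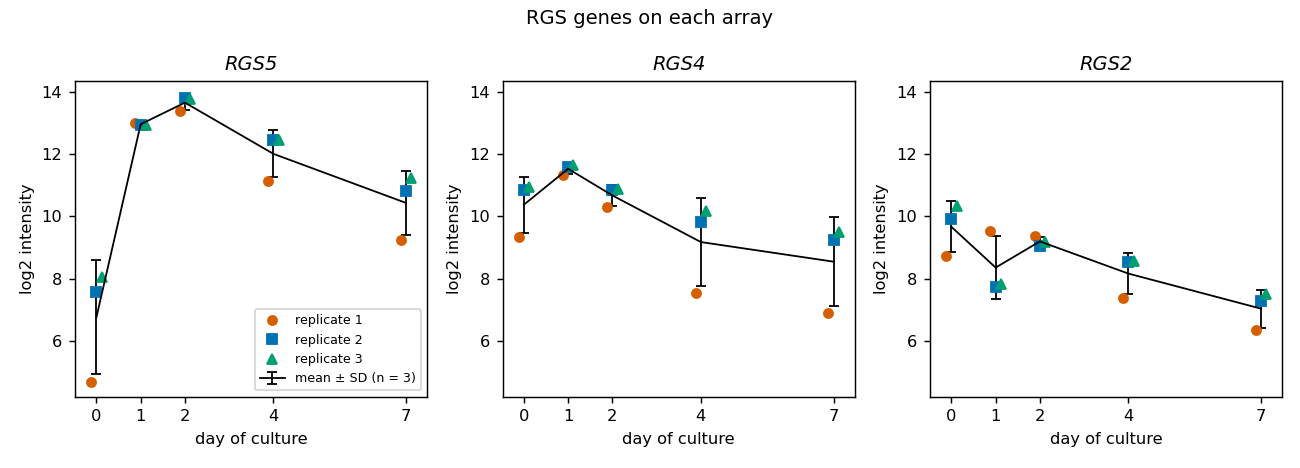
Log2 intensity (y axis) of RGS5, RGS4 and RGS2 on each array by day of culture (x axis), with the mean ± SD of the 3 arrays. RGS5 and RGS4 have their highest means on day 2 and day 1, and replicate 1 is the lowest array of RGS4 on every day, down to 6.90 on day 7.

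Among the G proteins on which RGS proteins act, 3 of 12 measured subunits rose on day 1, beside 6.47% of all probe sets, and 0 fell, with 2 lower at an unadjusted p under 0.05. On day 7, 3 rose and 1 fell, beside 9.36% and 7.28%. GNAI1, an inhibitory alpha subunit, had means of 8.48 on day 0, 10.78 on day 1 and 11.21 on day 2, and rose by 2.40 ± 0.17 by day 7 (limma adjusted p = 1.58e-07). The gamma subunits GNG2 and GNG12 rose by 5.24 ± 0.27 and 3.70 ± 0.35, and GNG11 was lower by a log2 change of -1.89 ± 0.23. The alpha subunit GNAI2 differed by 0.94 ± 0.21, under the minimum.

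Receptors that signal through these proteins in mural cells went both ways, 1 higher and 2 lower of 10 on day 1 (6.47% and 6.03% of all probe sets), and 2 higher and 4 lower on day 7 (9.36% and 7.28%). AGTR1, the receptor for angiotensin II, had a mean of 5.55 on day 0, 6.64 on day 2 and 9.51 on day 7, and rose by 3.96 ± 0.28 (limma adjusted p = 1.52e-07). The thrombin receptor F2R had its highest mean on day 1, 11.06, and rose by 2.01 ± 0.24 there. S1PR1, a sphingosine-1-phosphate receptor, and EDNRB were lower on day 7 by log2 changes of -3.09 ± 0.43 and -1.45 ± 0.16.

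Of 28 genes listed for PDGF signaling, 9 were measured, and the ligands PDGFA to PDGFD and the receptor PDGFRA had no named probe set. The measured ones lie downstream of the receptor. On day 1, 1 rose, beside 6.47% of all probe sets: the adaptor NCK2 at 2.13 ± 0.51 (limma adjusted p = 0.00677). On day 2, when PDGFRB was highest, 2 rose, beside 7.68%. These were NCK2 and PLCG1, the phospholipase that binds the activated receptor, the latter at 1.22 ± 0.22 (limma adjusted p = 8.38e-04). By day 7, 2 had risen, beside 9.36%: NCK2 by 1.55 ± 0.51 and the adaptor GRB2 by 1.14 ± 0.24. PLCG1 differed there by 0.39 ± 0.22. The number called on day 7 was 0 without day 0 replicate 1 and 1 without day 0 replicate 2 or 3 or day 7 replicate 1 or 3. The median of the list was 0.37 on day 1 and 0.39 on day 7, beside -0.0012 and -0.05 for all probe sets.

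Of 7 other cadherins measured out of 21 listed, 0 rose and 1 fell on day 7, beside 9.36% and 7.28% of all probe sets. At an unadjusted p under 0.05, 1 was higher. Counts so near those shares give no comparison of CDH11 with the other cadherins. Their median change on day 7 was -0.05, beside 6.06 for CDH11, whose rise was known at selection. CDH1, the epithelial cadherin, had a mean of 5.41 on day 0, close to the lower quartile, and changed by -1.09 ± 0.18 (limma adjusted p = 3.43e-04), a call lost without day 0 replicate 1. Means of CDH5, CDH6, CDH13 and CDH24 lay between 3.35 and 4.02 on day 0, below that quartile; CDH2, the cadherin of granulosa cells, had no named probe set. Of the catenins, which tie cadherins to actin, 0 of 4 measured were called on day 7, beside the same shares (1 at an unadjusted p under 0.05). CTNNB1, beta-catenin, was at 0.59 ± 0.16.

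Of 16 measured partners of THY1, 4 rose on day 1, 7 on day 2, 9 on day 4 and 10 on day 7. The shares of all probe sets that rose were 6.47%, 7.68%, 9.29% and 9.36%. On these days 0 partners fell, beside 6.03%, 6.09%, 6.59% and 7.28% of all probe sets; 1 was lower at an unadjusted p under 0.05 on days 2, 4 and 7. Their median change was 0.54 on day 1 and 1.46 on day 7. ITGB3, the integrin beta-3 chain that binds THY1 as a pair with ITGAV, had means of 5.69, 8.07, 10.68, 11.13 and 11.23 on days 0, 1, 2, 4 and 7, so that most of its rise came before that of THY1. ITGA5 rose by 4.84 ± 0.26 on day 7 (limma adjusted p = 1.13e-08), and CAV1, the caveolar protein of the membrane domains where THY1 lies, by 5.43 ± 0.43. The day 0 mean of CAV1, 4.55, lay below the lower quartile of those arrays (4.59 to 4.68), which limits how well the size of its rise is known. The kinase FYN, found beside THY1 on the inner membrane, rose by 1.96 ± 0.22. ITGAM and ITGB2, its leukocyte partners, had means of 4.23 and 4.67 on day 0 and 3.70 and 4.35 on day 7, and were not called.

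Smooth muscle genes, which mural cells and contractile fibroblasts share, rose in 3 of 10 cases on day 1 and 7 on day 7, beside 6.47% and 9.36% of all probe sets. Their median was 3.35 on day 7, and that of all probe sets -0.05. TAGLN, a binder of actin filaments, was at 4.35 ± 0.23 on day 1. Means of CNN1, smooth muscle calponin, were 4.34, 5.47, 6.62, 9.85 and 11.13 over the 5 days, and it rose by 3.23 ± 0.25 between days 2 and 4 (limma adjusted p = 2.43e-05). MYLK, the light chain kinase, and MYOCD, the coactivator of smooth muscle genes, differed by 0.59 ± 0.24 and -0.78 ± 0.18 on day 7, under the minimum change.

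Markers of cells that could accompany granulosa cells gave the following values beside the members, on a day 7 on which 9.36% of all probe sets rose and 7.28% fell. Of 11 endothelial genes 2 rose and 1 fell on day 7, and their summed level ranged over 9.74 to 10.0025 in fresh cells against 9.68 to 10.1 in day 7 cells; the mean of ERG, an endothelial transcription factor, went from 4.23 to 7.66 and that of PECAM1 from 5.66 to 7.14, while TIE1 went from 8.41 to 6.004. CDH5, KDR and TEK had means of 3.39 to 4.38 on all days. Of 14 leukocyte genes 1 rose and 0 fell on day 7 (2 of each at an unadjusted p under 0.05), the summed level lying at 8.79 to 9.06 in fresh cells against 9.15 to 9.28 in day 7 cells, and the 1 called was CD14, the lipopolysaccharide co-receptor, from 4.87 to 6.54. PTPRC, the common leukocyte antigen, had means of 3.68 to 3.78. Of 10 theca and stroma genes 0 rose and 1 fell on day 1, beside 6.47% and 6.03% of all probe sets (1 of each at an unadjusted p under 0.05). On day 7, 4 rose and 1 fell. The summed level of the theca and stroma genes was 10.36 to 10.69 in fresh cells. It was 10.72 to 10.76 after a day of culture and reached 12.5 to 12.7 in day 7 cells. The risen ones were DCN, LUM, COL1A2 and TCF21. The 1 that fell was INSL3, with means of 8.03 on day 0, 6.61 on day 1 and 5.67 on day 7. CYP17A1, the androgen enzyme of theca cells, had means of 4.99 on day 0 and 5.29 on day 7. The part of theca or stromal cells in the levels of THY1 and CDH11 was not tested.

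The genes whose 15 values were most like those of each member were found among 6764 others with 1 symbol; each shares the arrays and the days, and no test applies. For RGS5 they were TIAM2, FNBP1L, TBCC, SMAP1 and DBN1, with Pearson's r of 0.981 to 0.960. TIAM2, an activator of the GTPase Rac, had means of 5.40, 8.61, 8.97, 8.27 and 7.31 on days 0, 1, 2, 4 and 7, the same order of days as RGS5. Those of DBN1, the actin-binding protein drebrin, were 7.93 on day 0 and 9.44 on day 2. For PDGFRB they were CAP1, TXNDC17, GPM6B, TOX3 and CAPG (r of 0.976 to 0.966), of which CAP1 and CAPG act on actin filaments; CAPG had means of 7.75 on day 0 and 12.68 on day 2.

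For THY1 the most alike were ENPP1, COL8A1, MGP, SLC1A1 and TRAF3IP2 (r of 0.987 to 0.967). ENPP1, which makes pyrophosphate outside the cell, had means of 6.53, 5.64, 6.32, 9.83 and 10.98 on the 5 days. COL8A1, a short-chain collagen, and MGP, a matrix protein that inhibits calcification, were at 5.62 and 4.14 on day 0 and at 9.60 and 9.21 on day 7. For CDH11 they were CRYL1, MYL9, CDC42EP5, CNN1 and C1QTNF2 (r of 0.982 to 0.973). MYL9, the light chain of smooth muscle myosin, had means of 8.55 on day 0, 9.45 on day 2, 11.28 on day 4 and 11.88 on day 7.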

How the data were processed

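The deposited values are log2 intensities per probe set, which the submitters' processing notes credit to robust multi-array averaging (RMA, a background correction, quantile normalization and summary of probes) by the authors, with no version. Of 24123 probe sets, 124 controls were left out. The 5 days entered 1 limma model (limma 3.58.1, R 4.3.3) of the 15 arrays (moderated test, adjustment over 23999 probe sets); the fit was tested on simulated data. Symbols came from the array annotation. The members, the gene lists and the pattern were chosen with earlier results of these data known. Named genes are the members, up to 4 genes per list by size of day 7 change, and the 5 most correlated with each member; others were named after their values were seen, for their role or their calls. Same-numbered replicates deviated together (correlation over 0.1 for all 3 pairs) in every comparison but day 1 against day 0 (0.06 to 0.33); this pairing comes from the data, as the labels state none. Summed levels are log2 of summed linear intensities. Alternatives were other normalizations, a filter on dim probe sets, other limma settings, array weights, a replicate block, only the arrays compared, mean probe sets, and left-out arrays.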

Additional observations from a re-analysis of the deposited data

How the results depend on the processing

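Of 36 changes of the 4 genes under 26 alternatives each, 936 values in all, 919 kept their side of the limits. For RGS5, without a test, this meant the same direction and a move of less than 1 SD. Of the others, 11 gained a call and 6 lost one. Reversals numbered 0, but for PDGFRB, THY1 and CDH11 only a change of direction with a call in either fit counted as one. The direction of their uncalled changes was not compared. PDGFRB on day 7 against day 1 was called without the 40% dimmest probe sets and in fits of only the arrays compared (1.04 in each), with array weights (1.25), with replicates 2 and 3 only (1.26) and with the replicate block (1.04), as well as without day 0 replicate 1 or day 0 replicate 2 (1.04 in each). Limits of size and adjusted p serve here only to show what moves, since the later rise was known when the genes were selected. The block also called THY1 on day 7 against day 4 (1.21) and changed no other call of PDGFRB, THY1 or CDH11. Array weights called THY1 (1.03) and CDH11 (1.24) over those days, but the estimation of the weights stopped before it converged. CDH11 on day 2 against day 1 was called with replicates 2 and 3 only (1.11). The mean of all probe sets lost PDGFRB on day 2 against day 1 (0.73) and CDH11 on day 1 (0.59) and day 2 (0.86) against day 0. Leaving out 1 array gave 1.34 to 1.74 for PDGFRB on day 2 against day 1 and 0.79 to 1.19 on day 7 against day 1.

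Counts of called probe sets on day 7 against day 4, 14 as reported, were 4 without the dimmest, 144 with array weights, 41 with the block, 0 with only the arrays compared, 55 with replicates 2 and 3 only and 4 to 15 without 1 array. On day 2 against day 1, 729 became 1349 with array weights, 1321 with replicates 2 and 3 only, and 451 to 986 without 1 array; on day 4 against day 2, 608 became 371 with only the arrays compared. With no minimum change the counts were 6020, 6248, 7360 and 7514 on days 1, 2, 4 and 7 against day 0, 1461 on day 2 against day 1, 1002 on day 4 against day 2, 4524 on day 7 against day 1 and 2037 on day 7 against day 2. The cause of these differences was not tested, other than the lower limit itself. With 3 arrays a day and CDH11 on day 0 below the lower quartile of the signal, the size of its rise is limited by the floor.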
